A study of Mus musculus with 18 samples.

Results

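This account compares H3K9me3 in Dhx9 knockout mouse embryonic stem cells with wild-type cells, gene by gene. H3K9me3 (trimethylated lysine 9 of histone H3) was measured by ChIP-seq, and 4 of the 18 samples of the study enter: wild-type replicates 1 and 2 and Dhx9 KO replicates 1 and 2. Both groups are labelled ES-E14TG2a, a male embryonic stem cell line, and no treatment or time is named for them. The study built an inducible silencing system into this line, a fluorescent reporter at Vim and a TetR-KRAB fusion, but whether the cells of these 4 libraries carry it is not given in their labels. Their 2 libraries per sample are described in the study's methods as biological replicates. How the Dhx9 KO line was made, and whether both libraries come from 1 clone, are not given in the sources used here. Each library has its own list of peaks, called by the authors in bins of 200 bp against the same background reads, so the count in a peak is a count of ChIP reads set beside a count of background reads. Peaks of the 4 lists that overlapped or touched were merged into 155340 regions. They were read against 35858 genes of the deposited annotation, each taken as its transcripts plus 5 kb on both sides. Chromosomes 4 and 8 are given apart, because Dhx9 KO replicate 1 differs there from the other libraries along much of each chromosome.

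H3K9me3 marks silent chromatin. In embryonic stem cells it is laid down by SETDB1, which TRIM28 brings to DNA bound by KRAB zinc finger proteins, and by the SUV39H enzymes at the satellite repeats beside centromeres. It covers endogenous retroviruses, satellite repeats, clusters of zinc finger genes and the methylated copies of imprinting control regions. DHX9 is a helicase that unwinds double-stranded RNA and RNA-DNA hybrids, and it binds transcripts of inverted Alu and B1 repeats.

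The sequences below were read from the mm10 reference, plus strand, at regions where the Dhx9 KO libraries had fewer ChIP reads or, in one case, more, and each avoids annotated exons. The first is 1 unit of the tandem array at the start of chromosome 9, whose bases, over its first part, match those 234 bp further on at 65.9% of positions. That length is the length of the mouse major satellite repeat. Capitals mark the 13 bases that differ from the next unit.

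chr9:3002001-3002234: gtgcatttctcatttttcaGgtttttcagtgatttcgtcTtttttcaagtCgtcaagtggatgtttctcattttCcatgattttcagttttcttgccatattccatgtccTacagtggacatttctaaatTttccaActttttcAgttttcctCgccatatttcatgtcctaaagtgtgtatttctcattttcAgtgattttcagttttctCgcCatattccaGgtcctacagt

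The next pair comes from the imprinting control region of Snrpn and from Nespas in the Gnas cluster, shown because both regions fell. Capitals mark TGCCGC or its reverse complement GCGGCA, which share bases where they overlap. TGCCGC is the sequence that the KRAB zinc finger protein ZFP57 binds when it is methylated.

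Snrpn chr7:60004307-60004606: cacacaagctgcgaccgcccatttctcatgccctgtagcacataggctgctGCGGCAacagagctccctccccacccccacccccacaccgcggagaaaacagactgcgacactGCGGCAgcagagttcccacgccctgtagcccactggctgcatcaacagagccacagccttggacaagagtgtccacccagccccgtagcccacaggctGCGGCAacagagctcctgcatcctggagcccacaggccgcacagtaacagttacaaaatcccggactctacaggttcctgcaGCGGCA
Nespas chr2:174295818-174296117: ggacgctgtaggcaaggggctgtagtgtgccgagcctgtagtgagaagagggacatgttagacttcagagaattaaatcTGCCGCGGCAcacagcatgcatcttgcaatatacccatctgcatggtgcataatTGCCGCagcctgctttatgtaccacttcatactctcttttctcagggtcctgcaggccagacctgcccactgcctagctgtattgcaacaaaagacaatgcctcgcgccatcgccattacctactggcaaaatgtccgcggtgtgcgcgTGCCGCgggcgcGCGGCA

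The whole Snrpn region of 3000 bp held 10 such motifs on both strands, and 1 of the 939 tested regions of similar length (0.106%), this one, held as many. Of those 939 regions, 32.7% held at least 1. The Nespas region of 13800 bp held 14, and 2 of 346 regions of similar length (0.578%), this one included, held as many, while 75.1% held at least 1. A match is a stretch of letters and does not show that ZFP57 is bound.

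The last 4 windows show the regions with the 2 largest falls, the region that rose on chromosome 4 and the Asmt region at the end of the X chromosome. Capitals mark bases that the reference masks as repeats.

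Gm13139 chr4:147176501-147176700: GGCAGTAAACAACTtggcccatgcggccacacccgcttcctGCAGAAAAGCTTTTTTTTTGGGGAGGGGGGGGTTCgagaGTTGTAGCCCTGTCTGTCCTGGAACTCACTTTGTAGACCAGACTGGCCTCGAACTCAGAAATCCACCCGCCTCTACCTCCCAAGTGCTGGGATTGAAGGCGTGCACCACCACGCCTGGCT
Fbxo22 chr9:55209203-55209352: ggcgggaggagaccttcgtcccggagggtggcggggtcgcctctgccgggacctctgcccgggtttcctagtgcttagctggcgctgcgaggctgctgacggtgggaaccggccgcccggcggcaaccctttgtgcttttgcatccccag
Rise on chromosome 4 chr4:38067801-38068000: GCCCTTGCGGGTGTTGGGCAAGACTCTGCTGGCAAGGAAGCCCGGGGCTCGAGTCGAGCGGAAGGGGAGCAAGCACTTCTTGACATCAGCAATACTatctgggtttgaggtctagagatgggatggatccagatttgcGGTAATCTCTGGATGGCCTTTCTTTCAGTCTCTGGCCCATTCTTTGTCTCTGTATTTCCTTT
Asmt chrX:170675301-170675500: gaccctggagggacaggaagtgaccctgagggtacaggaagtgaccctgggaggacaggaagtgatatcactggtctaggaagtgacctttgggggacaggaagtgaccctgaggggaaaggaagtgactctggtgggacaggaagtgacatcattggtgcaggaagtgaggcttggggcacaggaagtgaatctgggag

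The Gm13139 window was masked over 169 of its 200 bases and the chromosome 4 rise over 158 of 200. The Fbxo22 and Asmt windows held no masked base. The Fbxo22 window is rich in CpG, with 14 in 150 bases, and the Asmt window held 0.

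The 4 libraries held similar numbers of reads within peaks. Wild-type replicates 1 and 2 had 116156 and 119982 peaks, with 20875020 and 19543177 ChIP reads in them, and Dhx9 KO replicates 1 and 2 had 125453 and 120695 peaks with 19761402 and 20491615 reads. Peaks covered 399 to 416 Mb. The total ChIP library sizes implied by the log2 folds, relative to wild-type replicate 1, were 0.960 in wild-type replicate 2 and 1.12 and 1.11 in the knockout, so both knockout libraries were larger without holding more reads within peaks. The replicates of each genotype differed by more than counting noise, by a chi-square per region of 4.69 in wild type and 15.4 in the knockout, so they were counted as separate samples. With 2 libraries against 2, an exact two-sided permutation test of a single value cannot go below p = 0.333, so single values are given without a p. Dhx9 itself, on chromosome 1, had no peak in any library, and the nearest region in all 4 lay 13112 bp away. A silencing mark does not test a knockout, so the labels were not checked this way.

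Strong H3K9me3 peaks were fewer in both Dhx9 KO libraries. The log2 fold of a peak is the authors' ratio of ChIP to background reads, each relative to its library. Peaks with a log2 fold of at least 3 numbered 2688 and 2881 in wild type but 553 and 1518 in the knockout. At a log2 fold of at least 2 the numbers were 14284 and 15579 in wild type against 5672 and 9126. Both knockout libraries lay below both wild-type libraries, replicate 1 further than replicate 2. The median over all peaks differed less, 1.05 and 1.06 in wild type and 0.927 and 1.01 in the knockout.

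The 58214 regions called in all 4 libraries were then grouped by wild-type replicate 1 alone and read in the other libraries. They needed a peak in every library, so regions that fell below the peak caller's threshold in the knockout are left out, and this matters most for weak regions. Among the 914 regions with a log2 enrichment of 3 or more in wild-type replicate 1, the median was 3.11 in wild-type replicate 2, 2.36 in Dhx9 KO replicate 1 and 2.51 in Dhx9 KO replicate 2. The median difference from wild-type replicate 2 was -0.73 and -0.54, and both knockout libraries lay below it in 81.8% of these regions. In the 9422 regions between 1.5 and 2 the differences were -0.35 and -0.18, and in the 20120 regions between 0.5 and 1 they were -0.08 and -0.06. Of all regions called in both wild-type libraries, those between 0.5 and 1 in wild-type replicate 1 numbered 28711, of which 70.1% had a peak in all 4 libraries and 7.69% had none in the knockout. At 3 or more there were 1372, with 66.6% in all 4 and 10.8% without a knockout peak, and between 1.5 and 2 the share without one was 4.46%. The strong regions were short and repetitive, with 77.4% of their bases masked as repeats at 3 or more, against 25.2% between 0.5 and 1. A lower level of the mark at strong sites and a lower enrichment of the knockout libraries as a whole cannot be told apart here, nor can fewer cells or alleles with the mark and less of it in each.

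**Figure D1:**
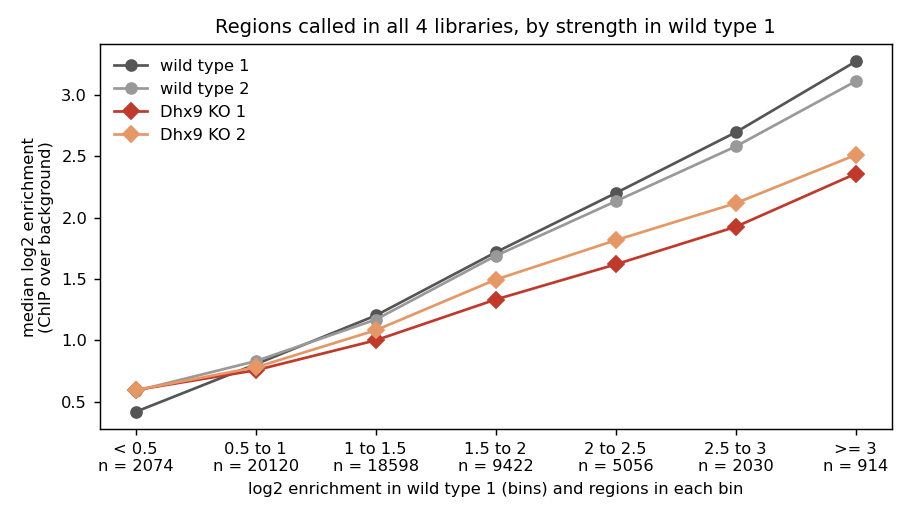
Median log2 enrichment (ChIP over background reads, scaled by library size) on the y axis, for regions called in all 4 libraries grouped on the x axis by their enrichment in wild-type replicate 1, with 1 line per library. Only regions with a peak in every library are shown, and in the bin of 3 or more the knockout medians of 2.36 and 2.51 lie below 3.11 in wild-type replicate 2.

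Whole regions were also lost and gained as calls. Lost regions are those with a peak in each wild-type list and in no Dhx9 KO list, and gained regions are the opposite. Of 78419 regions called in both wild-type libraries, 5468 were lost (6.97%), and of 73115 called in both knockout libraries, 6387 were gained (8.74%). Outside chromosomes 4 and 8 the numbers were 4660 lost and 5489 gained. Which of the 2 is larger depends on the peaks used: with a peak false discovery rate of at most 1e-10, 5060 regions were lost and 2645 gained, with a log2 fold of at least 1 there were 6027 and 3250, and with the same number of peaks in each library 6686 and 5857. These are weak peaks for the most part, with a median of 83 and 77 ChIP reads in the wild-type libraries for lost regions and 79 and 82 in the knockout libraries for gained ones. Reads in a region without a peak are not in the lists, so its level there is unknown and no fold change is given. Of lost regions 45.6% lay in introns and 45.4% between genes, of gained regions 33.6% and 61.5%, and of regions called in all 4 libraries 35.0% and 58.0%. Their GC content was 47.7%, 44.2% and 46.0%, and these differences were not tested. With a single library of either genotype left out, a call on that side rests on 1 library. Lost and gained regions then numbered 15509 and 10864 without wild-type replicate 1, 14121 and 11038 without wild-type replicate 2, 14222 and 23635 without Dhx9 KO replicate 1, and 13122 and 22958 without Dhx9 KO replicate 2.

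Strong calls are counted against pools of unequal size. With a log2 fold of at least 2 in both libraries of the genotype, 431 of 8667 wild-type regions were lost (4.97%) and 86 of 2368 knockout regions gained (3.63%). At 3 or more, 132 of 1222 were lost (10.8%) and 6 of 180 gained (3.33%). These limits were set after seeing the values. The strong lost regions were short, with a median length of 800 bp at 3 or more, and 87.8% of their bases were masked. Of the 132, 28 lay on chromosome X, which held 247 of the 1222, and 18 on Y, which held 49. The strongest of all lay in an intron of Pla2g4e, a phospholipase gene, at chr2:120222401-120223200, with 45 and 51 ChIP reads over 0 background reads in wild type. Next came regions between genes at chrX:61770801-61772200, with 66 and 66 reads over 1, and at chr13:11502401-11503200, with 63 and 71 reads over 1. None of these had a peak in either knockout library. The strongest gained region, at chr16:82590401-82590600 between genes, had 26 and 29 reads over 2 in the knockout.

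By genes, 622 of the 21417 called in both wild-type libraries were lost (2.9%). In the knockout, 19862 were called in both libraries and 551 of them gained (2.77%). Of the lost genes, 391 are protein coding and 231 are not, and of the gained genes 324 and 227. Outside chromosomes 4 and 8, 487 were lost and 484 gained. Under the same 3 choices of peaks as for regions, 1050, 1076 and 824 genes were lost against 469, 568 and 508 gained. Leaving out wild-type replicate 1 gave 1219 lost and 1068 gained. Wild-type replicate 2 left out gave 1205 and 1085, Dhx9 KO replicate 1 gave 2393 and 1216, and Dhx9 KO replicate 2 gave 1386 and 1666.

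The most strongly marked genes among those lost, ranked by the lower of the 2 wild-type log2 folds and leaving out predicted gene models, were led by Nipa2, a magnesium transporter gene, with 56 and 45 ChIP reads in its window over 1 and 3 background reads. Cldn34b3, a claudin gene on X, had 7 and 6 reads of a peak that reaches into its window. Rny1, which encodes a small cytoplasmic Y RNA, had 42 and 31 reads over 4 and 4. Alkbh6, of the AlkB family of dioxygenases, and Clip3, which encodes a CAP-Gly domain protein, share a peak with 48 and 66 reads. All of these were without a peak in both knockout libraries.

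Genes of chromosome Y were among them: Sry, the sex-determining gene, had 72 and 95 reads over 11 and 11 in wild type, and Zfy2, a zinc finger gene, had 109 and 65. The list closed with Gin1, a gene derived from a retrotransposon integrase, with 68 and 44 reads, Nck1, which encodes a signalling adaptor, with 52 and 52, and C77370 on X with 42 and 56.

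Genes gained had lower log2 folds, led by 1.75 at Prl4a1 against 4.13 at Nipa2 among the lost, by the lower of the 2 libraries. Their ChIP reads were similar in number. The high folds of the lost genes rest on few background reads, 1 and 3 at Nipa2. Prl4a1, of the placental prolactin family, had 66 and 68 reads over 20 and 20 in the knockout, and Heph, a ferroxidase of iron transport, had 70 and 87 over 22 and 22. Gabra2, a GABA receptor subunit gene, had 63 and 70 reads, and its neighbour Cox7b2 had 107 and 62. The bitter taste receptor gene Tas2r109 had 56 and 49. Dcaf8, which encodes a ubiquitin ligase adaptor, had 46 and 127 reads, and the vomeronasal receptor genes Vmn1r82 and Vmn2r71 had 39 and 94, and 58 and 63. Cldn12 had 105 and 9 reads, so that replicate 2 only reached the edge of its window. Mup6, a major urinary protein gene on chromosome 4, had 83 and 38. None of these genes had a peak in wild type.

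Read counts could be compared where all 4 libraries had a peak covering at least 80% of a region, which left 4701 regions. At a false discovery rate of 0.05 (edgeR's quasi-likelihood test, Benjamini-Hochberg adjustment), 26 regions fell in the knockout (0.553%) and 2 rose (0.0425%). An unadjusted p under 0.05 was seen in 574, of which 367 were lower and 207 higher. The median log2 change over all tested regions was 0.004, but the scaling was fitted on these same regions and holds it near 0. With the library sizes implied by the log2 folds instead, the median was -0.18. In that edgeR fit 824 regions had an unadjusted p under 0.05, of which 803 were lower and 21 higher. DESeq2 gave 29 lower and 2 higher, and without the offset for called length edgeR gave 12 and 3. Leaving out wild-type replicate 2 left 13 lower and 2 higher, and leaving out wild-type replicate 1 left 26 and 4. Without Dhx9 KO replicate 1 there were 420 and 467, and without Dhx9 KO replicate 2 there were 1351 and 617, in fits where the lone knockout library is assumed to vary like the wild type and where 10316 and 13806 regions could be tested. With no minimum on coverage, 58214 regions were tested and 2 fell, while the log2 changes of the 26 ranged from -1.79 to -0.60 in that fit and all kept their direction.

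**Figure D2:**
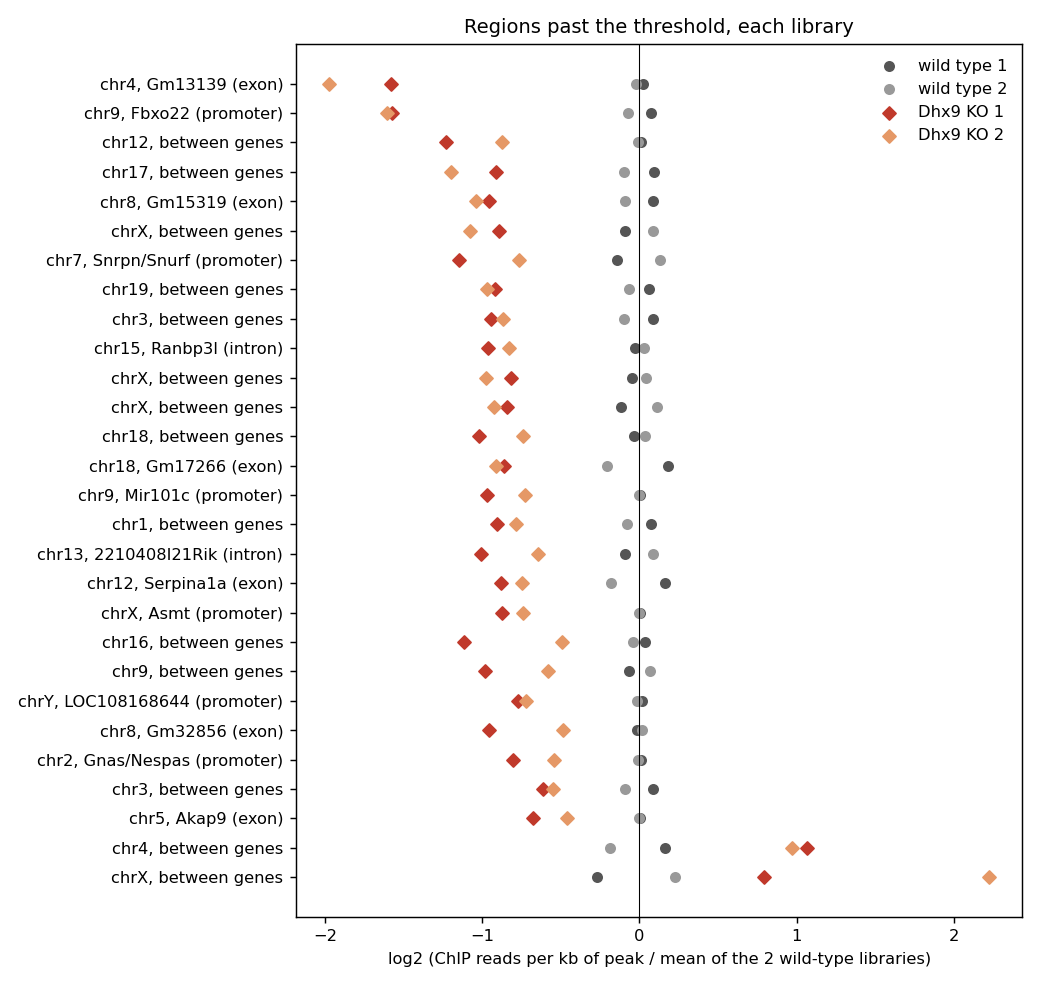
Each row is 1 of the 28 regions past the threshold, named by chromosome and overlapping gene, and the x axis gives log2 of its ChIP reads per kb of peak over the mean of the 2 wild-type libraries, with circles for wild type and diamonds for the knockout. In the 26 regions that fell, both knockout points lie left of both wild-type points, and in the 2 that rose they lie to the right. The regions were picked by the test on the same libraries, so this separation is no further support.

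The largest falls were at short regions. In a 400 bp region at an exon of Gm13139 on chromosome 4 (chr4:147176401-147176800), a predicted gene, 152 and 147 ChIP reads were counted for wild type against 50 and 38 for the knockout, over 23 background reads. Both knockout libraries lay far below wild type, and the log2 change was -1.75 (SE 0.22, adjusted p = 0.00146). At the promoter of Fbxo22 (chr9:55209001-55209600), which encodes a ubiquitin ligase subunit, the counts were 144 and 130 against 46 and 45, over 33 background reads in each. The log2 change was -1.58 (SE 0.21, adjusted p = 0.00146).

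Regions at the sequenced starts of chromosomes 9, 17 and 3, beside the centromeres, fell. The first sequenced stretch of chromosome 9 (chr9:2999801-3077600), from which the satellite unit above was taken and where Mir101c is annotated, held 506011 and 502046 ChIP reads in the wild-type libraries against 258751 and 299591 in the knockout ones, over about the same background (185756 to 185766 reads). This was a log2 change of -0.84 (SE 0.16, adjusted p = 0.0162). At the first stretch of chromosome 17 (chr17:3002001-3039000), wild type had 13182 and 11566 reads and the knockout 6562 and 5365, a log2 change of -1.03. At chromosome 3 (chr3:3000001-3033800) the counts were 8314 and 7318 against 4083 and 4312, a log2 change of -0.90. The groups do not overlap at any of them, but these regions were picked by the test on the same libraries, so this is no further support. Masked repeats made up 73.5%, 53.8% and 45.9% of the 3 regions. In the first part of each, which alone was read for this, 65.9%, 46.4% and 47.2% of bases matched those at a fixed distance. Of 17 tested regions picked by position, within the first 100 kb of sequence of most chromosomes, these 3 passed the test, and the median log2 change of the 17 was -0.26. The same limit was used on Y, so the 17 include chrY:2902601-2903000 and chrY:2934401-2934800, with log2 changes of -0.03 and 0.47. Zfy2 and Sry lie before these on Y, so they are not at the start of its sequence. Reads of near-identical repeats cannot be placed with certainty, so the position of such reads is uncertain.

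Tandem repeats were among the falls. Among the 80 tested regions whose bases match themselves at a fixed distance over at least 60% of positions, a limit set after seeing the data, 7 fell and 1 rose, with a median log2 change of -0.26. The chromosome 9 region is among them, by its first part alone. Of the 8 tested regions beyond 170 Mb of X, 4 fell and 1 rose. Among the 4 are chrX:170734001-170737200, chrX:170808801-170816800 and chrX:170819001-170820200, which meet that limit, and the promoter of Asmt, the last enzyme of melatonin synthesis, which does not (36.3% matched). The Asmt promoter region (chrX:170672601-170678200) held 3923 and 3912 reads in wild type and 2135 and 2346 in the knockout, a log2 change of -0.80 (SE 0.12, adjusted p = 0.00303). The riser, chrX:170758201-170758600, is wholly repeat sequence and held 6527 and 9191 reads in wild type against 13615 and 36808, over 4052 background reads. Its knockout libraries differ from each other by more than the genotypes' nearest libraries do.

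Imprinting control regions were among the falls. At the Snrpn and Snurf promoter (chr7:60002601-60005600), the control region of the Prader-Willi cluster, wild type had 263 and 318 reads and the knockout 121 and 197, over 64 to 77 background reads. The log2 change was -0.94 (SE 0.18, adjusted p = 0.0194). At Nespas and Gnas (chr2:174289001-174302800), which overlap on opposite strands in a cluster that encodes a G protein subunit, the counts were 1336 and 1362 against 834 and 852. That change was -0.67 on the log2 scale (SE 0.13, adjusted p = 0.0162). These are the control regions whose motifs are shown above, and neither was among the lost regions.

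Other falls lay within or beside genes. An intron of Ranbp3l, which encodes a Ran-binding protein (chr15:9015601-9016200), held 396 and 412 reads in wild type and 207 and 227 in the knockout. An exon of Serpina1a, a protease inhibitor gene, held 438 and 331 against 213 and 234. At Akap9, which encodes a scaffold for protein kinase A, the counts were 1986 and 2243 against 1323 and 1539, the smallest of the 26 changes at -0.56 on the log2 scale. On chromosome 8, the regions of the predicted genes Gm15319 and Gm32856 fell, with 10284 and 9277 reads against 5528 and 5802 and with 1029 and 1078 against 448 and 762.

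The second riser lay between genes on chromosome 4 (chr4:38066401-38069400), with 112 and 88 reads in wild type and 242 and 211 in the knockout, a log2 change of 1.03 (SE 0.19, adjusted p = 0.0114). Both its knockout libraries exceeded wild type, although chromosome 4 as a whole was raised in replicate 1 alone, as given below.

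Summed over genes, 1045 distinct sets of peaks could be tested, which belong to 1096 genes. In edgeR's test 18 sets fell (1.72%) and 1 rose (0.0957%), with 122 at an unadjusted p under 0.05, 81 of them lower and 41 higher. DESeq2 gave 23 and 2. Without wild-type replicate 1 there were 14 and 0, and without wild-type replicate 2 there were 6 and 0. Without Dhx9 KO replicate 1 there were 122 and 114, and without Dhx9 KO replicate 2 there were 266 and 76. With no minimum on coverage 17860 sets could be tested, and 37 fell and 8 rose.

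Snurf, the gene upstream of Snrpn in the same transcript, fell most, by 1.00 on the log2 scale (SE 0.18, adjusted p = 0.0422 in edgeR's test), from the counts given for its promoter. The gene models Gm17266 on chromosome 18, with 964 and 737 reads against 469 and 543, and LOC108168534 on chromosome Y, with 5118 and 5291 against 3206 and 4146, also fell. So did Mir101c and Asmt, by 0.87 on the log2 scale each, from the regions described above.

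Duxf3, of the Dux family of transcription factors that switch on the genes of the two-cell embryo, fell by 0.57 on the log2 scale (SE 0.05, adjusted p = 0.00377). Its set of peaks, shared with Gm4981 and Gm9919, held 12637 and 11131 reads in wild type and 8117 and 9332 in the knockout. Dux genes lie in an array of near-identical copies, so their reads may be split among copies.

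Rn5s, the 5S ribosomal RNA gene on chromosome 8, had 661 and 614 reads against 453 and 442, a fall of 0.57 on the log2 scale, in a set shared with its repeated copies. It was the only set past the threshold on chromosome 8, where replicate 1 is low throughout, and none of 17 sets passed on chromosome 4.

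Other protein-coding genes past the test fell by 0.25 to 0.56 on the log2 scale. Il3ra, the alpha chain of the interleukin-3 receptor, had 1527 and 1548 reads in wild type against 1010 and 1297. At Cldn4, a tight junction claudin, the counts were 833 and 824 against 560 and 506, for a peak of which 206 and 142 against 122 and 46 reads fall to its window when shared out by overlap. At Polrmt, the mitochondrial RNA polymerase, the counts were 2272 and 2139 against 1489 and 1495. In Pcdha4, of the alpha protocadherins, they were 3676 and 3577 against 2572 and 3145. Clcn4, which encodes a chloride-proton exchanger, had 2370 and 2496 against 1683 and 2114. Fam19a5, a secreted protein gene, had 9743 and 8598 against 7597 and 6815, the smallest of these changes at -0.25. In each, the knockout libraries lay below both wild-type libraries, which is no further support, since the genes were picked by the test. The one riser was Atp8b2, which encodes a phospholipid flippase, with 467 and 453 reads in wild type and 675 and 697 in the knockout, a log2 change of 0.55 (SE 0.10, adjusted p = 0.0433 in edgeR's test). Shared out by overlap, the reads of its window were 426 and 405 against 419 and 339, so more of its knockout peaks lay beyond the window. It passed under 7 of the 14 alternatives in which it could be tested.

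For groups of genes, a second measure was used that allows all genes called in every library: net ChIP reads. They are the reads of called peaks, shared out by their overlap with the window and scaled to the depth of the background. The background reads of the same peaks, shared out likewise, are then taken off. Reads outside peaks are not counted, so net reads also follow the length called in each library. Net reads were taken as log2 of the value plus 20 and compared with the wild-type mean. The median over genes outside chromosomes 4 and 8 was -0.26 in Dhx9 KO replicate 1 and -0.30 in replicate 2, and the values below are centred on these medians, so they say how a group stood relative to other genes. Net reads of single genes are printed without this centring. After this centring, among 16821 genes, both knockout libraries lay below both wild-type libraries in 22.7% and above in 20.7%. In limma's test on these values 1 of 16745 sets passed, lower, the gene model LOC101056014, and 0 rose, with 1560 at an unadjusted p under 0.05. The groups below are therefore described by counts and medians. Neighbouring genes of a family share peaks and are not independent.

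**Figure D3:**
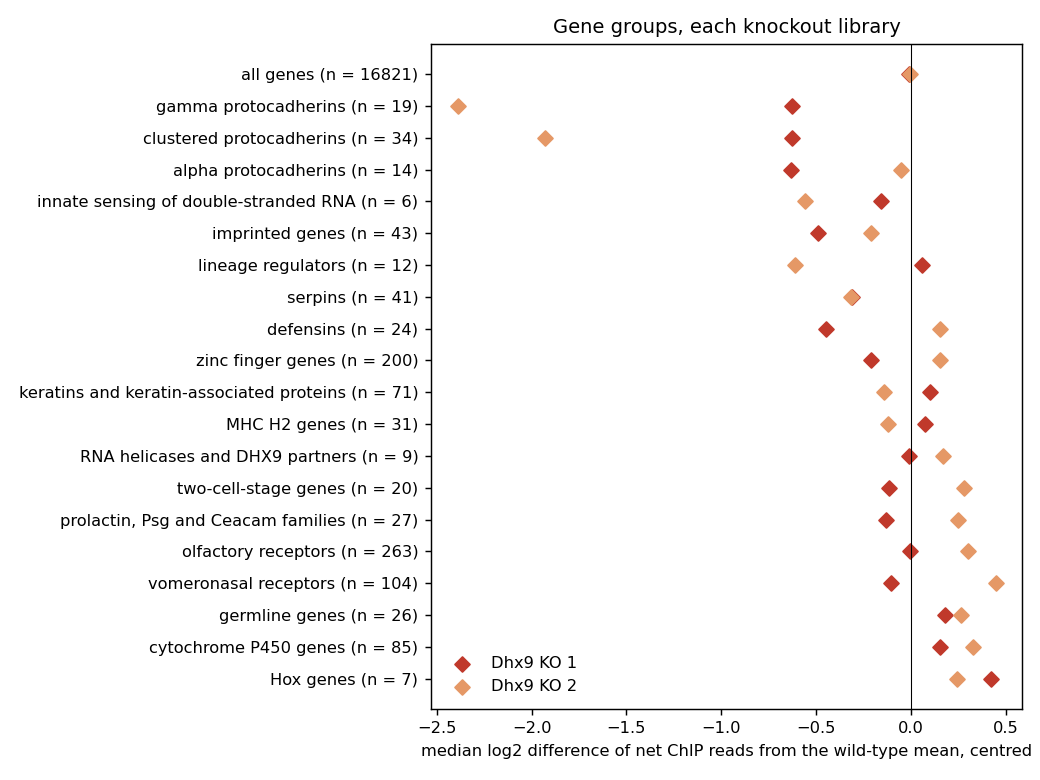
For each gene group with at least 6 genes called in all 4 libraries, the x axis gives the median log2 difference of net ChIP reads from the wild-type mean, centred on all genes outside chromosomes 4 and 8, with 1 point per knockout library. Imprinted genes, serpins, protocadherins and the 6 genes that sense double-stranded RNA lie left of 0 in both libraries. Germline genes, cytochrome P450 genes and the 7 Hox genes lie right of it, which holds only after centring. Without it their medians are -0.08 and -0.03, -0.10 and 0.03, and 0.17 and -0.06.

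Imprinted genes, silenced on one parental copy, stood below other genes in both knockout libraries. Of 53 on the list, 46 were called in both wild-type libraries and 44 in all 4, and 0 were lost or gained. The median centred difference over the 43 with a level was -0.49 and -0.21, against -0.01 and -0.01 over all genes. Both knockout libraries lay below both wild-type libraries in 23 of 43 (53.5%, against 22.7% of all genes) and above in 6. The 1 member past the test was Snurf. Their median log2 enrichment was 1.35 in wild-type replicate 1 against 0.982 for all genes, and in the knockout it differed from wild-type replicate 2 by -0.36 and -0.21. Genes of all kinds differed by -0.17 and -0.08 between 1 and 1.5 in wild-type replicate 1, and by -0.38 and -0.18 between 1.5 and 2. Vomeronasal receptors differed by -0.43 and -0.25 and olfactory receptors by -0.26 and -0.21. The imprinted median of 1.35 lies in the first of these bins, whose change was smaller than that of imprinted genes. Their change was nearer to that of the bin between 1.5 and 2. Whether imprinted genes fell more than equally marked genes was not tested.

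Nnat, a neuronal gene within an intron of Blcap, had 811 and 637 net reads in wild type and 198 and 341 in the knockout. Nap1l5, within Herc3, had 289 and 294 against 88.1 and 189. At Inpp5f the net reads were 553 and 686 against 270 and 317. Each of these 3 lay below wild type in both libraries, replicate 1 more so at Nnat and Nap1l5.

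Cdh15, a cadherin gene on chromosome 8, had 2241 and 2205 net reads against 752 and 1281. Mest, which encodes a hydrolase, had 694 and 659 against 297 and 367, and Plagl1, a zinc finger growth suppressor, 502 and 649 against 229 and 374. Impact, a regulator of translation, had 472 and 536 against 274 and 263. Peg3, a zinc finger gene, had 1009 and 978 against 514 and 699, and the noncoding RNA Kcnq1ot1 had 1058 and 1130 against 553 and 744. The knockout libraries lay below the wild-type libraries in all 6.

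Several imprinted genes did not share this. H19, the noncoding RNA beside Igf2, had 711 and 659 net reads in wild type and 393 and 620 in the knockout, so that replicate 2 came near the wild-type range. Grb10, a growth inhibitor, had 645 and 645 against 490 and 1010, with the knockout libraries on either side of wild type. Zdbf2 had 107 and 99.0 against 109 and 97.1, and Rtl1, derived from a retrotransposon, 450 and 403 against 452 and 460. Sgce had the highest relative value of the list, from few reads, with 72 and 38 ChIP reads over 46 and 25 background reads in wild type and 271 and 294 over 156 and 157 in the knockout.

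**Figure D4:**
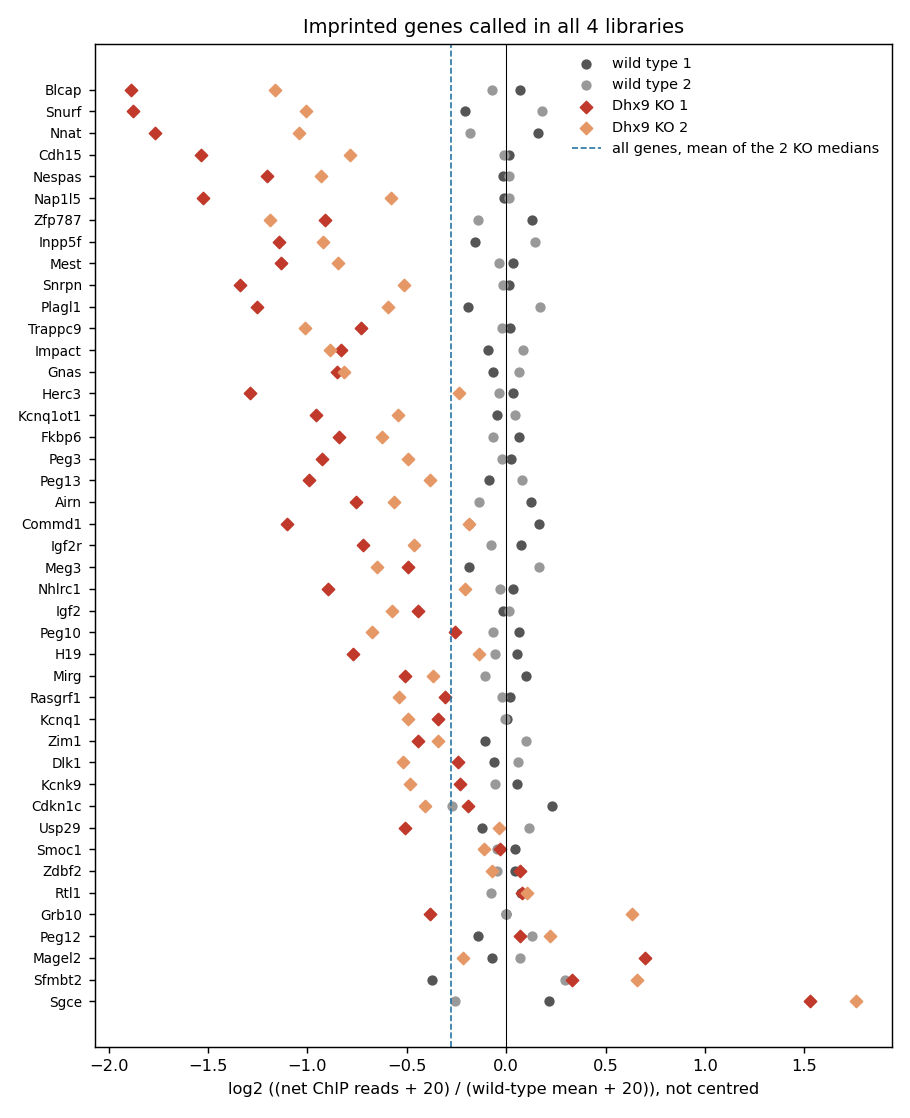
Rows are the 43 imprinted genes called in all 4 libraries, ordered by the mean knockout difference, and the x axis gives log2 of net ChIP reads plus 20 over the wild-type mean plus 20, not centred, with 1 point per library. The dashed line is the mean of the medians of the 2 knockout libraries over all genes outside chromosomes 4 and 8 (-0.26 and -0.30), and most knockout points of the upper rows lie left of it.

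Clustered protocadherins, the cell-surface proteins that give neurons their identity, lie on chromosome 18 and are given under the same measure. Of 58 members, 52 were called in both wild-type libraries and 35 in all 4. Lost were 3 (5.77%, against 2.9% of all genes), Pcdhb7, Pcdhb17 and Pcdhb21, and 0 were gained. The median centred difference was -0.63 and -1.93 over 34 members. Both knockout libraries lay below wild type in 26 of 34 (76.5%, against 22.7% of all genes) and above in 0 (against 20.7%). The 14 alpha members stood at -0.63 and -0.05, and the 19 gamma members at -0.63 and -2.39, so in net reads replicate 2 differed from replicate 1 most in the gamma cluster. In log2 enrichment the gamma members differed from wild-type replicate 2 by a median of -0.37 and -0.38, without such a gap. All of the tested members, Pcdha1, Pcdha2, Pcdha3 and Pcdha4, fell in edgeR's test, by 0.45 to 0.48 on the log2 scale (adjusted p = 0.0178 to 0.0258). They share exons and peaks and count as one observation. Pcdha1 had 4089 and 3990 ChIP reads in the wild-type libraries against 2716 and 3343.

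Serpins, the family of protease inhibitors, stood at -0.31 and -0.32 over 41 members. Of these, 20 lay below wild type in both libraries (48.8%) and 6 above (14.6%), against 22.7% and 20.7% of all genes. Of 64 serpin genes, 0 were lost and 2 gained, Serpinb9e and Serpini2 (4.17%, against 2.77% of all genes). Cytochrome P450 genes, the oxidases of drug and steroid metabolism, stood at 0.15 and 0.33 relative to other genes. After centring, 40 of 85 lay above wild type in both libraries (47.1%, against 20.7% of all genes) and 11 below (12.9%, against 22.7%). Without centring their medians were -0.10 and 0.03. Of the 104, 22 lie on chromosomes 4 and 8. Outside them the centred medians were 0.09 and 0.13 over 66 members, with 23 above and 11 below. Of all genes outside them, 21.0% lay above and 21.9% below. Cyp2c29 was gained. Germline genes stood at 0.18 and 0.27 relative to other genes over 26 members, and at -0.08 and -0.03 without centring. Sycp3, of the meiotic chromosome axis, was gained, with 47.1 and 32.5 net reads in the knockout.

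Zinc finger genes, many of which encode KRAB repressors of retroviruses, split between the libraries. Over 200 members the medians were -0.21 and 0.15, with 53 below and 38 above wild type in both. Of 279 called in both wild-type libraries, 19 were lost (6.81%, against 2.9% of all genes), among them Zfp229, Zfp760, Zfp609 and Zfp263, and 8 were gained. Outside chromosomes 4 and 8, 15 of 246 were lost (6.10%). Windows with few peaks are lost more easily than those with many, and over single regions 6.97% were lost. Whether zinc finger genes differ from other genes with windows of similar length was not tested. At Zfp229 wild type had 64.2 and 70.2 net reads, and at Zfp263 69.8 and 67.1.

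Olfactory receptors, one of the largest mouse gene families, stood at -0.004 and 0.30 over 263 members, and 434 of the 1124 had no peak in any library. Of those called in wild type 13 were lost (3.16%, against 2.9% of all genes), and of those called in the knockout 24 were gained (5.57%, against 2.77%). The lost ones included Olfr684, Olfr1490, Olfr705 and Olfr1255. Vomeronasal receptors stood at -0.11 and 0.45 over 104 members, with 4 lost, Vmn1r176 and Vmn2r51 among them. Gained were 15, 9.8% of those called in both knockout libraries against 2.77% of all genes. A gene counts as gained only where no wild-type peak touches its window, so short windows with few peaks are gained more easily. Over single regions 8.74% were gained, and whether either receptor family differs from other genes with windows of similar length was not tested. Without centring the medians were -0.26 and -0.001 for olfactory and -0.36 and 0.15 for vomeronasal receptors. Vomeronasal receptors had the strongest marking of the large families, a log2 enrichment of 1.75 and 1.78 in wild type and 1.40 and 1.54 in the knockout.

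Lists of the early embryo and of stem cell identity had medians of opposite sign in the knockout libraries or few peaks. Of 28 two-cell-stage genes, 20 had a level, with medians of -0.11 and 0.28, Duxf3 fell and Tdpoz1 was gained. Of 20 pluripotency genes, 12 had no peak in any library, and Esrrb, an orphan nuclear receptor gene, had 1717 and 1680 net reads in wild type and 1103 and 931 in the knockout, a centred difference of -0.36 and -0.55. Tfcp2l1 had 290 and 67.7 against 98.3 and 28.6, where the wild-type libraries already differ more than the genotypes. Among lineage regulators, with medians of 0.06 and -0.61 over 12, Sox1 on chromosome 8, a neural transcription factor gene, was lost, with 28.8 and 30.4 net reads in wild type.

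Few genes of the H3K9 methylation machinery carried the mark. Of 23 genes, 13 had no peak in any library and 4 were called in all 4, and Kdm4c, an H3K9 demethylase gene on chromosome 4, was gained, with 139 and 116 ChIP reads over 67 and 44. Of 11 genes of DNA methylation, Tet2, which encodes a 5-methylcytosine oxidase, was lost, with 21.5 and 47.4 net reads in wild type. Among 29 RNA helicases and partners of DHX9, 9 had a level, with medians of -0.01 and 0.17, and Dhx40 was gained from 18.0 and 16.4 net reads. Among 19 genes that sense double-stranded RNA, the 6 with a level stood at -0.16 and -0.56, and Eif2ak2, which encodes the kinase PKR, was lost, with 45.1 and 24.4 net reads in wild type.

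The medians of the remaining lists differed in sign between the knockout libraries or rest on few members. Keratins stood at 0.10 and -0.14, MHC H2 genes at 0.07 and -0.12 and the prolactin, Psg and Ceacam families at -0.13 and 0.25. H2-Q6, a class I gene, had 984 and 944 net reads against 687 and 666, a centred difference of -0.22 in each. H2-T-ps had 1000 and 1010 against 911 and 800, or 0.12 and -0.02 after centring. Krtap22-2 was lost and Krtap31-1 gained, and in the prolactin family Prl4a1 and Prl3d2 were gained. Defensins, 46 of whose 64 genes lie on chromosome 8 or 4, stood at -0.45 and 0.15. Defb2 and Defb3 were lost (5.56%) and Defa17 gained (3.70%). The 7 Hox genes with a level stood at 0.42 and 0.24 (0.17 and -0.06 without centring), with Hoxc4 and Hoxc5 gained and Hoxc12 and Hoxd1 lost. Ribosomal protein genes had no peak in 60 of 80, with Rpl38 lost and Rpl14 gained. Over all genes, 2.9% were lost and 2.77% gained.

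Chromosomes 4 and 8 of Dhx9 KO replicate 1 stood apart. Over regions called in all 4 libraries, the median log2 difference of ChIP read density from the wild-type mean was 0.17 on chromosome 4 and -0.18 on chromosome 8 in Dhx9 KO replicate 1. In replicate 2 it was -0.01 and 0.003. The 17 other autosomes ranged from -0.05 to 0.05 in replicate 1 and from -0.04 to 0.02 in replicate 2. On chromosome 4 the median was 0.22 over the first 130 Mb, with values per 10 Mb from 0.04 (10 to 20 Mb) to 0.35, and 0.03 from there to 160 Mb, with 0.05 at 130 to 140 Mb. On chromosome 8 it ran along the whole chromosome, from -0.32 to -0.11 per 10 Mb. The lists use the wild-type input as background for all 4 libraries, so the number of copies of these chromosomes and the level of the mark cannot be told apart.

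The calls followed the same lines. On chromosome 4, 154 regions were lost (3.52% of those in wild type) and 835 gained (16.5% of those in the knockout), and on chromosome 8, 654 were lost (12.3%) and 63 gained (2.01%). By genes, chromosome 4 had 15 lost and 64 gained, and chromosome 8 had 120 lost and 3 gained. A gained call needs a peak in both knockout libraries, and a lost call a peak in neither. A shift in replicate 1 alone can therefore change both counts, and the median level of replicate 2 was near 0 there.

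Among the strongest named calls on these chromosomes, gained genes of chromosome 4 were Mup6, Olfr272 with 142 and 114 ChIP reads, Kdm4c and Nipsnap3a with 265 and 173. Lost genes of chromosome 8 were Agpat5, which encodes a lipid acyltransferase, with 165 and 122 reads in wild type, and Mrpl34, a mitochondrial ribosomal protein gene, with 215 and 169.

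The sex chromosomes were lower in both knockout libraries. The median log2 difference on X was -0.26 and -0.13 over 827 regions, and on Y -0.17 and -0.21 over 38. Of 172 regions called in both wild-type libraries on Y, 74 were lost (43.0%) and 2 were gained, and on X 130 of 1372 were lost (9.48%). Of all regions, 6.97% were lost. Most regions of X and Y were strong. A log2 fold of at least 2 in both wild-type libraries was seen in 961 of the 1372 on X, 141 of the 172 on Y and 8667 of 78419 in all. At that strength 8.53% were lost on X and 41.8% on Y, against 4.97% of all. Whether the median levels of X and Y differ from those of equally strong regions elsewhere was not tested. By genes, 16 of 204 were lost on X and 3 of 17 on Y.

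**Figure D5:**
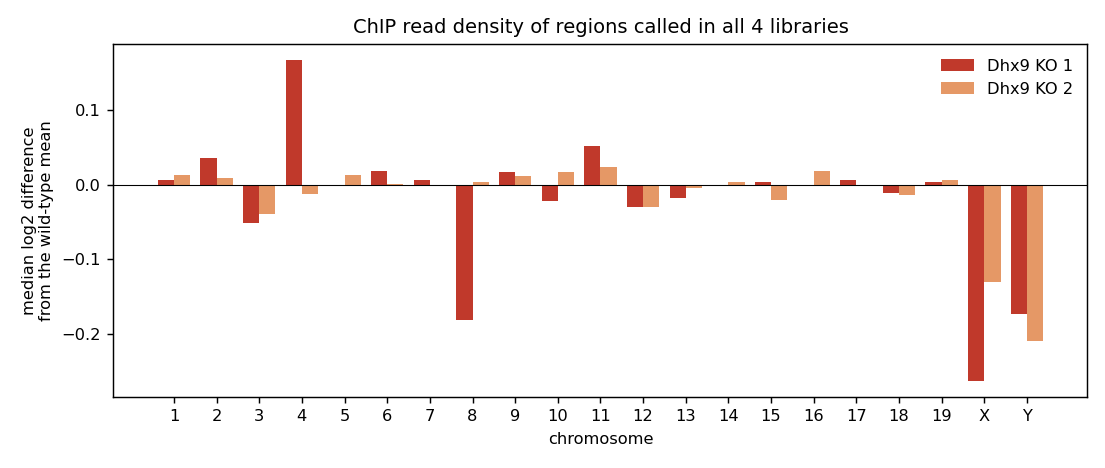
Bars give, for each chromosome on the x axis, the median log2 difference of ChIP read density from the wild-type mean over regions called in all 4 libraries, 1 bar per knockout library. Chromosome 4 (0.17) and chromosome 8 (-0.18) stand out in replicate 1 alone, and chromosomes X and Y lie below 0 in both.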

How the data were processed

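H3K9me3 ChIP-seq peak lists of 2 wild-type and 2 Dhx9 KO libraries of mouse embryonic stem cells were used. The authors aligned reads to mm10 with Bowtie2 (2.3.4.3 in the submitters' notes). For wild type their methods state that reads were subsampled and that epic2 (SICER 0.0.51 in those notes) was run on each library, duplicates kept, against wild-type input, and the Dhx9 KO lists have the same columns and background reads. Each deposited peak carries raw counts of ChIP and of background reads. From the authors' peak caller come its p-value and false discovery rate and its log2 fold, ChIP over background relative to library sizes. Background reads were checked to be the same in all 4 lists. The deposited annotation inserts the reporter into chromosome 2, and its positions were moved back to mm10. Depth was 19543177 to 20875020 ChIP reads within peaks per library. The standard errors given cover counting error and the spread between replicates as edgeR fits it.

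Peaks that overlapped or touched were merged (Python 3.11.15, numpy 2.4.6, pandas 2.3.3). Counts of regions covered over at least 80% in each library were tested with edgeR 4.0.16 in R 4.3.3 (quasi-likelihood test, TMM factors on an offset for called length, Benjamini-Hochberg rate of 0.05). Counts of genes were tested in the same way where the shortest called length among the libraries was at least 80% of the longest. Genes with the same peaks were tested once. DESeq2 1.42.0 was an alternative, and net reads, added after seeing the data, were tested with limma 3.58.1 on genes with a mean of at least 50. The edgeR fit was tested on simulated data. Standard errors come from the log2 change and its test. Replicates 1 and 2 share only a number across genotypes.

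Named genes were Dhx9, the 10 largest falls and rises past the threshold (5 on chromosomes 4 and 8), the 10 lost and gained genes with the highest lower log2 fold, and for each list up to 4 members past the threshold, lost or gained, or else the 2 with most wild-type reads. Other named regions and members, and the other imprinted genes, were chosen after their values were seen. The members and lists were chosen with earlier results of these data known. Samples of other genotypes, inputs and time points were not used here. Sequences, GC content and masked repeats come from the GRCm38 reference.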

Additional observations from a re-analysis of the deposited data

How the results depend on the processing

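The direction of each single region and gene past the threshold was the same under every alternative in which it could be fitted. Counts moved more. Requiring a peak false discovery rate of at most 1e-10 gave 5060 regions lost and 2645 gained and 1050 genes lost and 469 gained, and a log2 fold of at least 1 gave 6027, 3250, 1076 and 568. With equal peaks per library they were 6686, 5857, 824 and 508, so the excess of gained over lost regions turned around under all 3. Leaving out one library at a time gave 13122 to 15509 regions lost, 10864 to 23635 gained, 1205 to 2393 genes lost and 1068 to 1666 gained. For read counts of regions it gave 13 to 1351 lower and 2 to 617 higher, and for genes 6 to 266 lower and 0 to 114 higher. The high ends come from fits with 1 knockout library, in which more regions and genes could be tested.

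With library sizes taken from the lists, 40 regions were lower and 0 higher, and 0 gene sets higher. With no minimum on coverage, 2 regions were lower and 0 higher, and 37 gene sets lower and 8 higher. With background reads as an offset, 44 regions were lower and 8 higher. Without the length offset, 12 regions were lower, and 5 gene sets lower and 0 higher. Without chromosomes 4 and 8, 4 regions were higher. DESeq2 gave 2 gene sets higher. Windows without a flank and reads shared out by overlap each gave 0 higher, and limma on net reads gave 1 lower and 0 higher.

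With a replicate block, 64 regions were lower and 16 higher, and 59 gene sets lower and 10 higher. The numbers do not pair these libraries: the deviations of same-numbered libraries correlate at -0.069 across the tested regions. The level of chromosome 4 in Dhx9 KO replicate 1 was 0.21 when ChIP reads were divided by background reads and 0.26 over regions covered at least 80% in every library, and that of chromosome 8 over those regions was -0.27. Reads below the peak caller's threshold are not in the lists, which limits every statement on lost and gained regions.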
